A study of Mus musculus with 6 samples.

Results

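The unfolded protein response and the protein-folding machinery of the endoplasmic reticulum (ER) were followed through 38 genes in mouse islets, out of the 19342 genes of the count table. The members were chosen by name from their known roles in this pathway, with earlier results of these data known. Of the 38, 37 were found under their symbols and Selenos under its older symbol Vimp, by its NCBI gene identifier. All 38 passed the filter on low counts, which left 14619 genes in the tests. The islets came from 3-month-old mice that carried FXR (FXR+/+, labelled WT) or lacked it (FXR-/-, labelled FXR knockout, on the C57Bl/6 background), and neither group received a treatment. FXR, encoded by Nr1h4, is a nuclear receptor for bile acids. Each genotype had 1 female library (F1) and 2 male libraries (M1 and M2), and the pancreas was digested with collagenase P to free the islets. The knockout allele is not described further in the sources used here. Whether a library held the islets of 1 mouse or of several is not given in the sources used here, so p-values measure the spread between these libraries. The islets held several cell types, and fewer cells of a type cannot be told apart from less RNA per cell.

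The ER folds secreted and membrane proteins, and when unfolded proteins collect there a set of membrane sensors respond. IRE1alpha (Ern1) splices the Xbp1 mRNA into the form that encodes an active transcription factor, PERK (Eif2ak3) phosphorylates eIF2alpha and so lets the Atf4 mRNA be translated, and ATF6 is cut in the Golgi to release its own transcription factor. XBP1 and ATF6 act on genes of chaperones, disulfide isomerases and ER-associated degradation (ERAD, the export of misfolded proteins for breakdown), while ATF4 acts on genes of amino acid supply and, with CHOP (Ddit3), on genes tied to cell death. Beta cells make large amounts of proinsulin, and acinar cells of the exocrine pancreas make large amounts of digestive enzymes, so both depend on this machinery. Splicing of Xbp1, phosphorylation and protein levels are not read by gene counts.

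Total counts per library ran from 20629306 to 30139235, and the 38 members together took 0.971% to 1.31% of them. Levels are given as CPM, the gene's count divided by its library total after TMM scaling, and libraries are always listed in the order F1, M1, M2. Nr1h4 stood at 14.2, 13.6 and 12.2 CPM in the FXR+/+ libraries and 5.67, 7.62 and 5.80 CPM in the FXR-/- libraries, so every library labelled knockout was below every FXR+/+ library, with transcript left (log2 fold change -1.07, SE 0.16, edgeR adjusted p = 0.22, against 0.044 with same-numbered libraries paired and 7.9e-05 by DESeq2). The sum of 26 acinar genes, which digestion of the pancreas can leave in an islet preparation, took 6.02%, 14.8% and 5.30% of the counts in the FXR+/+ libraries and 7.72%, 15.4% and 9.65% in the FXR-/- libraries. Both M1 libraries stood apart with the highest share. Within pairs of the same number the share was 1.28, 1.04 and 1.82 times as high in the FXR-/- library, so pair M1 was the one most closely matched. The 13 beta-cell genes took 19.4% to 26%. Of the 38 members, 12 share some exon bases with another annotated gene, most of all Ppp1r15b (640 bases, opposite strand), and reads there cannot be assigned to 1 gene.

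The arms of the response act through short promoter elements, shown here because some of the members group by them. RefSeq promoter windows (GRCm38.p6, 250 bases before and 50 after the start site) were found for 32 of the 38 members and for 27025 genes in all, and both strands were searched. The ER stress response element (ERSE), read by ATF6 and XBP1 with NF-Y, was searched as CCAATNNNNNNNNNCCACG and lay in the windows of 9 members (Hspa5, Hsp90b1, Dnajc3, Creld2, Calr, Canx, Pdia6, Syvn1 and Derl3), against 0.137% of all genes. The shorter ERSE-II, ATTGG and CCACG parted by 1 base, lay in those of Dnajb11 and Herpud1, against 0.0444% of all genes. The C/EBP-ATF response element (CARE), bound by ATF4 with a C/EBP partner, was searched as TGATGNAA and lay in those of Trib3, Chac1, Asns and Herpud1, against 4.51% of all genes. The letters TGACGTGG, a form of the XBP1 element, were found in the window of no member, against 0.714% of all genes. Members not named here had no match or no window. Sdf2l1, which had the largest log2 fold change of the 38 between genotypes, had a window without a match. None of these patterns contains another, and a match is a match of letters only. The members were picked as genes of this pathway, so a higher share of matches among them is not a result of these data. The 250 bases before the start site of Hspa5 (plus strand, chr2:34771840-34772089) hold its ERSE 65 to 47 bases ahead of the start, and those of Chac1 (plus strand, chr2:119350992-119351241) hold a CARE on the opposite strand, 193 to 186 bases ahead. Capitals mark the fixed letters of the elements, and the other lines give an element with 10 bases on each side, read in the orientation of the element.
Hspa5 upstream: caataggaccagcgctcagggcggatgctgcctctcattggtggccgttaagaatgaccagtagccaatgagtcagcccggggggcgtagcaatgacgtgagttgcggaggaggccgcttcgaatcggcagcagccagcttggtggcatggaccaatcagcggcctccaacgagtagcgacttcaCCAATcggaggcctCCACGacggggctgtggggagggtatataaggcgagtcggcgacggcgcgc
Chac1 upstream: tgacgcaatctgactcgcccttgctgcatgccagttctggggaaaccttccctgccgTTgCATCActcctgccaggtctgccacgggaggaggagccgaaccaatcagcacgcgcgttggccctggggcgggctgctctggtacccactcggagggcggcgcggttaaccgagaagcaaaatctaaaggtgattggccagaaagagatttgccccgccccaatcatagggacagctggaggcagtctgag
Creld2 ERSE (chr15:88819510-88819548, minus strand): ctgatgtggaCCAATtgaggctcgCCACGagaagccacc
Pdia6 ERSE (chr12:17266481-17266519, plus strand): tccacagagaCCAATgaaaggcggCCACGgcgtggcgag
Derl3 ERSE (chr10:75893232-75893270, minus strand): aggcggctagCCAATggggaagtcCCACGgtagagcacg
Calr ERSE (chr8:84847065-84847103, plus strand): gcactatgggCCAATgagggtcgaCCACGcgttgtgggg
Herpud1 ERSE-II (chr8:94386367-94386397, plus strand): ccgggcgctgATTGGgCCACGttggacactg
Herpud1 CARE (chr8:94386307-94386334, minus strand): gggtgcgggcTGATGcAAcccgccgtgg
Asns CARE (chr6:7693215-7693242, minus strand): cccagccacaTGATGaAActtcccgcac

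Compared per length, as CPM per kb of exon in the FXR+/+ libraries, the folding enzymes led the members. The length joined the exons of all annotated transcripts, so it can be longer than the mRNA, and the order depends partly on annotation. For Manf it was 3524 bases, more than the RefSeq span of the gene (chr9:106888753-106891938). Hspa5, the Hsp70 chaperone BiP, stood highest at 305 ± 11.3 CPM per kb (SD, n = 3), followed by Pdia3 at 273 ± 35.9, P4hb at 268 ± 25.9, Hsp90b1 at 264 ± 36.9 and Calr at 239 ± 35.2 CPM per kb. The gaps between Pdia3, P4hb, Hsp90b1 and Calr were within their SDs. The sensors were far lower, with Atf6 at 17.5 ± 1.28, Ern1 at 15.5 ± 1.32 and Eif2ak3 at 11.9 ± 1.09 CPM per kb. Chac1, Derl3 and Trib3 were the lowest of the 38, at 10.7 ± 4.35, 7.78 ± 3.16 and 2.57 ± 1.35 CPM per kb.

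The first comparison asked whether the loss of FXR went with a change of this machinery. No member passed an adjusted p of 0.05 in edgeR's quasi-likelihood test of FXR-/- against FXR+/+ with sex in the model (0 of 38, against 0% of the 14619 genes tested), and DESeq2 called none of the 38 either. With the replicate number as a block, edgeR again called none of the 38, and 23 of all genes. At an unadjusted p under 0.05, 5 of the 38 members were higher in FXR-/- islets (Sdf2l1, Chac1, Derl3, Creld2 and Pdia6), against 6.18% of all genes, and none was lower, against 4.15%. DESeq2 gave 8 at that level, all higher, against 9.1% of all genes in either direction, of which 57.6% were higher. The member estimates lay mostly above 0, 29 of 38, and their median log2 fold change was 0.19, beside 7536 of 14619 and 0.0084 for all genes. The libraries of the genotypes did not separate fully for any member (0 of 38), whereas they did so for 15.4% of all genes. The FXR-/- M1 library was the highest of the 6 for 30 of the 38 members, against 24.7% of all genes, and the FXR-/- F1 library was the lowest for 20, against 15%. The highest and the lowest library were both FXR-/- for 16 of the 38, against 17.4% of all genes.

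**Figure D1:**
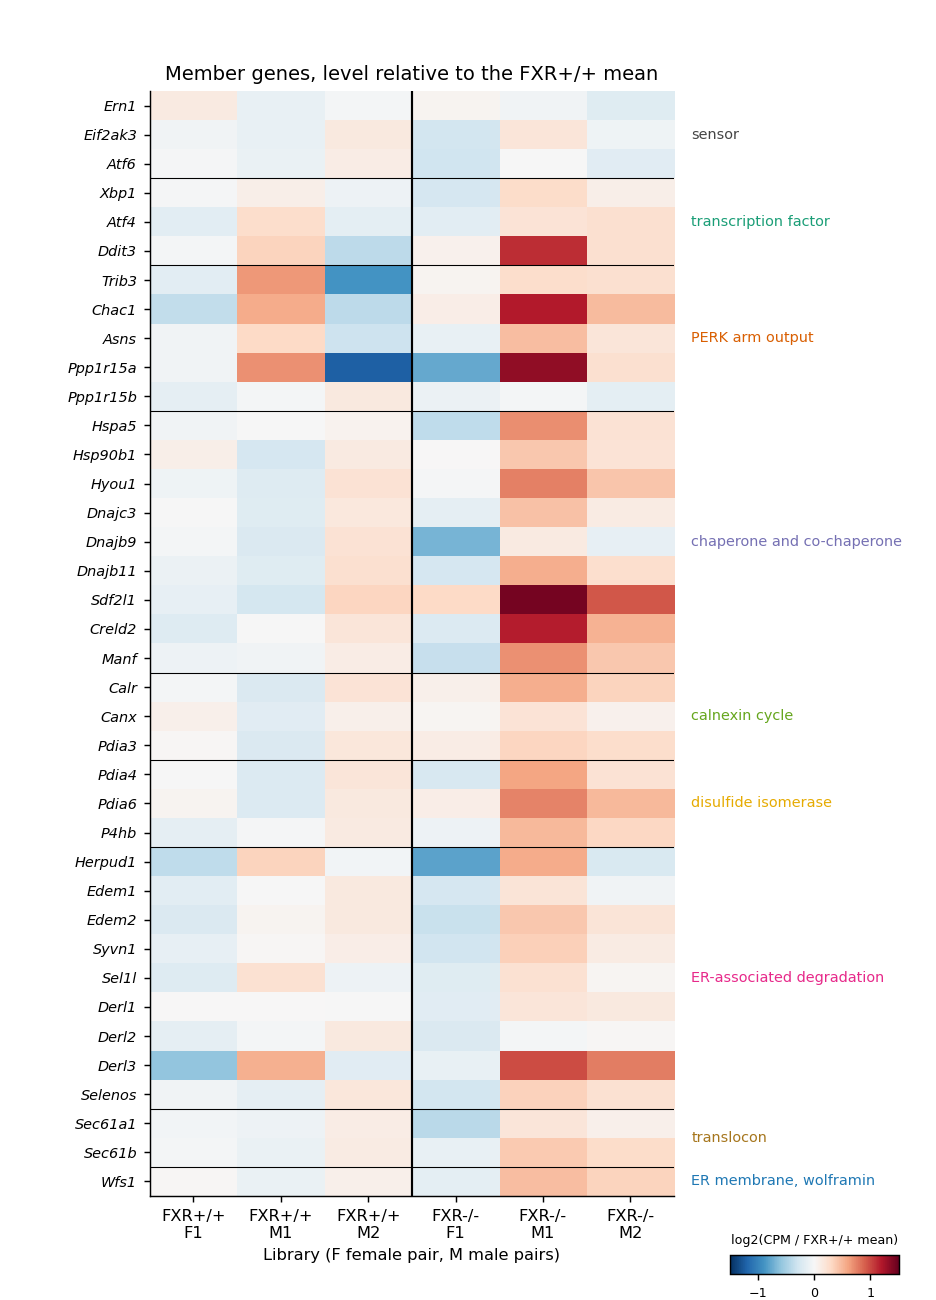
Heat map of the 38 members (one line each, grouped by role) in the 6 libraries, as log2 of the CPM over the mean of the FXR+/+ libraries, red above and blue below that mean. By the median of a role, the FXR-/- M1 column is reddest over the chaperones (0.68) and the disulfide isomerases (0.59). Sdf2l1 is its deepest gene, and Ppp1r15a, Chac1, Ddit3 and Derl3, of other roles, are redder there than any disulfide isomerase. The FXR-/- F1 column is mostly pale to blue.

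The count at an unadjusted p under 0.05 moved with single libraries. It was 8, all higher, without either F1 library, where the sex term takes up the lone female and only males compare the genotypes. Without FXR+/+ M1 it was 4 higher and 2 lower (Atf6 and Dnajb9), and without FXR-/- M1 it was 2 higher and 1 lower (Herpud1). The one-sided count was thus lost when either M1 library was left out. Genes at that level in either direction numbered 1510 of 14619 in the main fit and 2176 of 14836 without FXR+/+ M1. They numbered 863 of 14929 without FXR-/- M1 and 2260 of 14771 without pair M1. Creld2 and Chac1 fell to 0.24 and 0.39 (log2) without FXR-/- M1, Chac1 to 0.38 without FXR+/+ M2, and Pdia6 to 0.29 without FXR+/+ M1. With pair M1 left out, which holds the highest acinar shares, Sdf2l1, Chac1 and Derl3 passed the adjusted threshold (3 of 38, with 235 of 14771 genes called). This alternative was chosen after seeing the data, and no other setting called a member between genotypes. The members' median then fell to -0.018, and at an unadjusted p under 0.05 there were 5 higher and 4 lower. The log2 fold change of Sdf2l1 was then 0.51 in place of 0.91 (edgeR adjusted p = 0.039), that of Chac1 0.67 in place of 0.64 (adjusted p = 0.049) and that of Derl3 0.71 in place of 0.60 (adjusted p = 0.046). Across all settings tried their adjusted p ran up to 0.65, 0.89 and 0.84. When libraries were scaled by size alone, 3 members were higher and 1 lower at an unadjusted p under 0.05, and of all genes past that level 29.0% were higher in place of 59.8%.

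The sensors and the transcription factors showed no member past an unadjusted p of 0.05 between genotypes, although Ddit3 passed that level with same-numbered libraries paired. Ern1, the kinase and RNase that splices Xbp1, stood at 139, 118 and 124 CPM in the FXR+/+ libraries and 130.3, 123 and 112 CPM in the FXR-/- libraries. Its groups overlapped within a narrow range, and its log2 fold change was -0.059 (SE 0.077, adjusted p = 0.78) in edgeR's test, as are all adjusted p-values given for a gene. Eif2ak3, the PERK kinase, stood at 69.1, 66.4 and 78.9 CPM in the FXR+/+ libraries and 58.9, 81.4 and 68.5 CPM in the FXR-/- libraries. The FXR-/- libraries held both its highest value, in M1, and its lowest, in F1, and its log2 fold change was -0.047 (SE 0.11, adjusted p = 0.88). Atf6 stood at 159, 151 and 174 CPM in the FXR+/+ libraries and 131, 161 and 143 CPM in the FXR-/- libraries. Its FXR-/- F1 and M2 values lay below every FXR+/+ value, while M1 lay among them, and the log2 fold change was -0.16 (SE 0.10, adjusted p = 0.55).

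Xbp1, which encodes the factor made active by IRE1alpha splicing, stood at 247, 266 and 239 CPM in the FXR+/+ libraries and 210.5, 303 and 265 CPM in the FXR-/- libraries. The FXR-/- libraries again bracketed the FXR+/+ range, and the log2 fold change was 0.039 (SE 0.12, adjusted p = 0.91). Atf4, the factor translated when PERK is active, stood at 217, 289 and 219 CPM in the FXR+/+ libraries and 216, 278 and 285 CPM in the FXR-/- libraries. It was low in both F1 libraries and in FXR+/+ M2 and high in the other 3, with a log2 fold change of 0.10 (SE 0.12, adjusted p = 0.76). Ddit3, which encodes the death-linked factor CHOP, stood at 27.9, 35.7 and 21.6 CPM in the FXR+/+ libraries and 29.7, 61.1 and 33.5 CPM in the FXR-/- libraries. The FXR-/- library was the higher in each pair, by 1.06, 1.71 and 1.55 times, but FXR+/+ M1 exceeded FXR-/- F1 and M2, and the log2 fold change was 0.51 (SE 0.27, adjusted p = 0.52). With the replicate number as a block it was 0.50 (SE 0.13, edgeR adjusted p = 0.15), and it fell to 0.17 without FXR-/- M1 and to 0.27 without FXR+/+ M2.

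Among the outputs of the PERK arm, Chac1, a glutathione-degrading enzyme under ATF4 (chr2:119351242-119354326, plus strand), stood at 13.6, 25.8 and 13.3 CPM in the FXR+/+ libraries and 18.9, 40.2 and 24.5 CPM in the FXR-/- libraries. It was higher in the FXR-/- library of every pair, by 1.39, 1.56 and 1.83 times, and the groups overlapped because FXR+/+ M1 exceeded FXR-/- F1 and M2. The means were 17.6 ± 7.13 CPM against 27.9 ± 11.1 CPM (SD, n = 3 each), with a log2 fold change of 0.64 (SE 0.27, adjusted p = 0.48). Trib3, a pseudokinase induced with CHOP, was scarce at 4.90, 8.57 and 2.93 CPM in the FXR+/+ libraries and 5.63, 6.57 and 6.48 CPM in the FXR-/- libraries. Its highest and its lowest value were both in the FXR+/+ group, and its log2 fold change was 0.20 (SE 0.35, adjusted p = 0.83). Asns, asparagine synthetase, stood at 91.8, 118 and 77.2 CPM in the FXR+/+ libraries and 88.6, 132 and 108 CPM in the FXR-/- libraries, with the highest value in FXR-/- M1 and the lowest in FXR+/+ M2. Its log2 fold change was 0.18 (SE 0.17, adjusted p = 0.68). Ppp1r15a, the GADD34 subunit that brings a phosphatase back to eIF2alpha, had the widest spread of the 38 in fold terms, at 56.4, 93.8 and 25.0 CPM in the FXR+/+ libraries and 34.4, 147 and 68.7 CPM in the FXR-/- libraries. Both M1 libraries were high, and the log2 fold change was 0.35 (SE 0.55, adjusted p = 0.81). Ppp1r15b, the constitutive counterpart of GADD34, was grouped with these genes and ranged only from 73.5 to 89.8 CPM. The grouping is by known role, and gene counts do not show whether PERK was active.

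Of the 9 chaperones and co-chaperones, 8 had estimates above 0 and 2 passed an unadjusted p of 0.05. Sdf2l1, a partner of BiP that slows the clumping of unfolded proteins (chr16:17130138-17132383, minus strand), stood at 65.4, 59.3 and 89.3 CPM in the FXR+/+ libraries and 87.8, 193 and 136 CPM in the FXR-/- libraries. Only FXR+/+ M2 exceeded the lowest FXR-/- value, that of F1, and the FXR-/- library was the higher in every pair, by 1.34, 3.26 and 1.52 times. The means were 71.4 ± 15.8 CPM against 139 ± 52.8 CPM (SD, n = 3 each), and the log2 fold change was the largest of the 38, 0.91 (SE 0.22, adjusted p = 0.34). Creld2, an ER chaperone with disulfide isomerase activity (chr15:88819646-88826681, plus strand), stood at 53.2, 60.7 and 69.0 CPM in the FXR+/+ libraries and 52.7, 138 and 87.6 CPM in the FXR-/- libraries. Both FXR-/- male libraries exceeded every FXR+/+ library, while FXR-/- F1 was the lowest of the 6, and the log2 fold change was 0.53 (SE 0.21, adjusted p = 0.47).

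Hspa5, encoding BiP, the chaperone that binds and silences the sensors in unstressed cells, stood at 1244, 1285 and 1339 CPM in the FXR+/+ libraries and 993, 2094 and 1498 CPM in the FXR-/- libraries. The same pattern recurred, with both FXR-/- males highest and FXR-/- F1 lowest, and the log2 fold change was 0.20 (SE 0.22, adjusted p = 0.74). It turned to -0.030 without the FXR-/- M1 library and to -0.087 without pair M1. Manf, a secreted and ER-resident factor that protects beta cells, stood at 293, 298 and 334 CPM in the FXR+/+ libraries and 242, 494 and 409 CPM in the FXR-/- libraries, again with FXR-/- males highest and FXR-/- F1 lowest. Its log2 fold change was 0.26 (SE 0.17, adjusted p = 0.58). The other 5 were Hsp90b1 (GRP94), Hyou1 (an exchange factor for BiP), Dnajc3, Dnajb9 and Dnajb11 (J-domain partners of BiP). Their log2 fold changes ran from -0.23 for Dnajb9 to 0.39 for Hyou1, none past an unadjusted p of 0.05. Every one of the 9 was higher in FXR-/- M1 than in FXR+/+ M1.

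The calnexin cycle, which holds glycoproteins until they fold, and the disulfide isomerases gave 6 estimates above 0. Pdia6, an isomerase that also damps IRE1alpha and PERK (chr12:17266589-17284785, plus strand), stood at 498, 420.5 and 534 CPM in the FXR+/+ libraries and 519, 812 and 681 CPM in the FXR-/- libraries. Both FXR-/- male libraries were above the other 4 libraries, and FXR-/- F1 lay inside the FXR+/+ range. The means were 484 ± 58.0 CPM against 671 ± 146 CPM (SD, n = 3 each), with a log2 fold change of 0.45 (SE 0.17, adjusted p = 0.46). P4hb, the main protein disulfide isomerase, stood at 695, 759 and 843 CPM in the FXR+/+ libraries and 725, 1074 and 949 CPM in the FXR-/- libraries, with the FXR-/- males highest and a log2 fold change of 0.25 (SE 0.13, adjusted p = 0.52). Calr (calreticulin), Canx (calnexin), Pdia3 (their isomerase partner) and Pdia4 had log2 fold changes of 0.32, 0.10, 0.23 and 0.20, none past an unadjusted p of 0.05.

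Among the 9 ERAD genes, Derl3 alone passed an unadjusted p of 0.05 between genotypes. Derl3, a derlin of the retrotranslocation complex found in secretory cells (chr10:75893398-75895941, plus strand), stood at 10.3, 22.5 and 13.8 CPM in the FXR+/+ libraries and 14.4, 30.6 and 26.4 CPM in the FXR-/- libraries. Each FXR-/- library exceeded its pair, by 1.40, 1.36 and 1.92 times, with FXR+/+ M1 above FXR-/- F1. The means were 15.5 ± 6.29 CPM against 23.8 ± 8.40 CPM (SD, n = 3 each), with a log2 fold change of 0.60 (SE 0.18, adjusted p = 0.43). Herpud1, an ER membrane protein that recruits the ubiquitin ligase HRD1, stood at 195, 321 and 248 CPM in the FXR+/+ libraries and 146, 376 and 217 CPM in the FXR-/- libraries. Both M1 libraries were highest and both F1 libraries lowest, and the log2 fold change was -0.10 (SE 0.22, adjusted p = 0.87).

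Syvn1, which encodes HRD1 itself, stood at 69.4, 76.6 and 80.7 CPM in the FXR+/+ libraries and 61.9, 96.5 and 82.0 CPM in the FXR-/- libraries. Sel1l, the partner of HRD1, stood at 172, 230.3 and 187 CPM in the FXR+/+ libraries and 173, 229 and 200.1 CPM in the FXR-/- libraries, higher in both M1 libraries than in the other 4. Their log2 fold changes between genotypes were 0.067 (SE 0.11) and 0.032 (SE 0.11). Edem1 and Edem2, lectin-like proteins that mark misfolded glycoproteins for disposal, were both lowest in FXR-/- F1. Edem1 stood at 119, 132 and 146 CPM in the FXR+/+ libraries and 111, 151 and 128 CPM in the FXR-/- libraries. Edem2 stood at 101, 121 and 131 CPM in the FXR+/+ libraries and 93.1, 156 and 134 CPM in the FXR-/- libraries. Both were highest in FXR-/- M1, with log2 fold changes of -0.032 (SE 0.094) and 0.10 (SE 0.10). Derl2, a further derlin, stood at 98.7, 106 and 120.1 CPM in the FXR+/+ libraries and 93, 106 and 109 CPM in the FXR-/- libraries, and its log2 fold change was -0.078 (SE 0.079). Derl1 and Selenos, a selenoprotein that binds derlins, ranged from 126 to 162 CPM and from 69.3 to 107 CPM.

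The translocon genes Sec61a1 and Sec61b, which encode the pore through which new proteins enter the ER, had log2 fold changes of -0.053 (SE 0.13) and 0.19 (SE 0.11). Wfs1, wolframin, an ER membrane protein whose loss causes diabetes in Wolfram syndrome, stood at 133, 122 and 139 CPM in the FXR+/+ libraries and 118, 181 and 166 CPM in the FXR-/- libraries. Both FXR-/- males were above the other 4 libraries and FXR-/- F1 was the lowest, and the log2 fold change was 0.22 (SE 0.13, adjusted p = 0.55).

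Read within pairs of the same number, the members split by sex and by pair. The labels give the numbers but do not say that same-numbered libraries belong together. In the male pair M1, whose acinar shares were 14.8% and 15.4%, 33 of the 38 members were higher in the FXR-/- library, against 49.7% of all genes, with a median log2 ratio of 0.46. In the male pair M2 27 of 38 were higher, against 52.7%, with a median of 0.11. In the female pair 12 of 38 were higher, against 50.4%, with a median of -0.089. All genes had medians of 0.0026, -0.0025 and 0.022 in F1, M1 and M2. Between F1 and M1 the chaperones carried the widest gap of the roles, with medians of -0.13, 0.72 and 0.16. The sensors had medians of -0.23, 0.094 and -0.20.

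In all, 9 members were higher in the FXR-/- library of all 3 pairs (Ddit3, Chac1, Hyou1, Sdf2l1, Calr, Pdia3, Pdia6, P4hb and Derl3), a share of 23.7% against 20.4% of all genes, and 1 was lower in all 3 (Derl2), against 18.9%. The share of members that moved up in every pair was thus near that of all genes. Another 15 were higher in both male pairs and lower in the female pair, among them Xbp1, Hspa5, Hsp90b1, Creld2, Manf, Pdia4 and Wfs1, against 12.3% of all genes. The female ratio was below both male ratios for 29 of the 38, against 33.7% of all genes. These shares rest on 1 female library of each genotype.

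**Figure D2:**
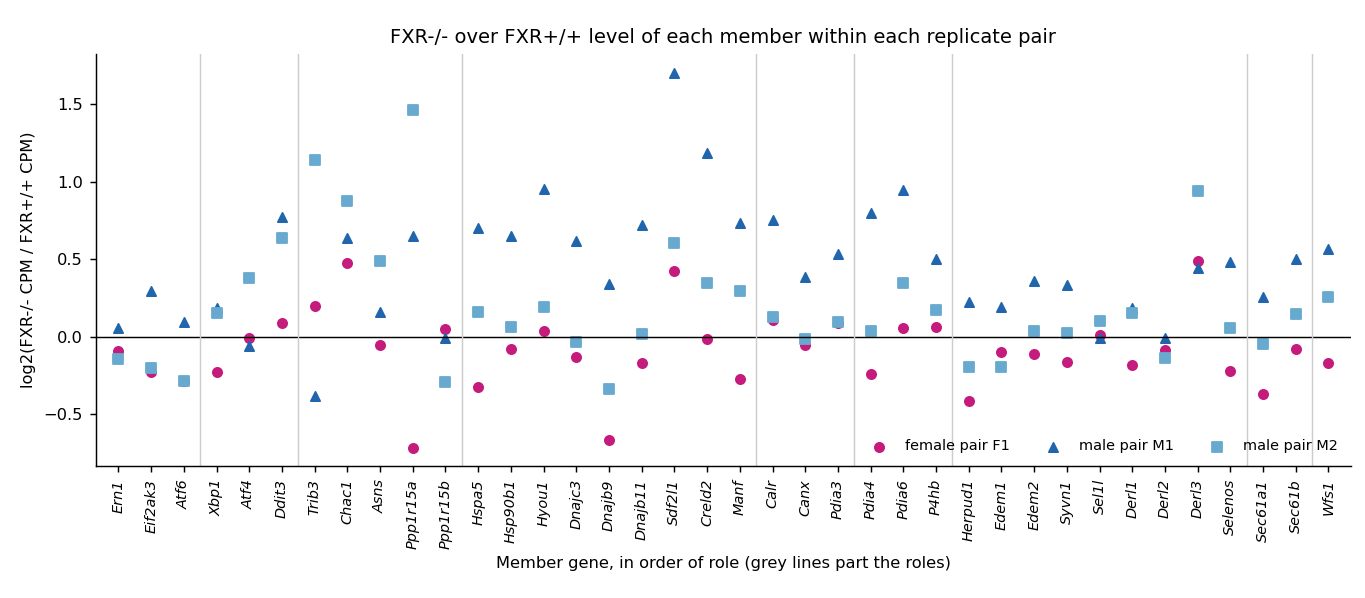
Log2 ratio of FXR-/- over FXR+/+ CPM for each member within the female pair (circles) and the male pairs M1 (triangles) and M2 (squares), with grey lines between roles and 0 meaning no difference. The M1 triangles lie above 0 for all 9 chaperones, and most female circles lie below 0.

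The test of that difference itself, the interaction of genotype and sex, called no member in edgeR (0 of 38, against 0% of genes) and none in DESeq2. At an unadjusted p under 0.05 it gave 2 of 38, Manf and Wfs1, against 1.48% of genes. With 1 female library of each genotype, the SEs of this term rest on the spread between male libraries. The genotype difference of Manf in females minus that in males was -0.79 (SE 0.25, adjusted p = 1.00). For Wfs1 it was -0.58 (SE 0.20, adjusted p = 1.00). The interaction estimate lay below 0 for 37 of 38 members, with a median of -0.37, beside 7373 of 14619 genes and a median of -0.0026. DESeq2 gave 8 members at an unadjusted p under 0.05, against 0.964% of genes, and scaling by library size alone gave 0, with the median of all genes then moved to 0.15 and that of the members to -0.22.

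The members were next read against acinar content, by adding the log2 acinar share to the model and taking its slope. The slope is the change in log2 CPM per doubling of the share at fixed sex and genotype. Both M1 libraries held the highest shares, so among males it cannot be told apart from other differences between M1 and M2 libraries. The fit left 2 residual degrees of freedom. Chac1 was the member called (1 of 38, against 1.01% of genes), with a slope of 0.73 (SE 0.12, adjusted p = 0.036). At an unadjusted p under 0.05, 9 of 38 had a positive slope, against 9.93% of all genes, and none a negative one, against 4.79%. They were Atf4, Ddit3, Trib3, Chac1, Asns, Ppp1r15a, Herpud1, Sel1l and Derl3, so 6 of the 9 were transcription factors or outputs of the PERK arm. The PERK arm outputs had a median slope of 0.73, whereas the chaperones had one of -0.11, the calnexin cycle -0.17 and the disulfide isomerases -0.085. All 38 members had a median of -0.038 and all genes one of -0.0014. The contrast between these roles largely went without FXR+/+ M1. With that library left out the PERK arm outputs had a median slope of 0.60 and the chaperones one of 0.46, and 36 of the 38 members had positive slopes, with a median of 0.37. With same-numbered libraries paired the medians were 0.48 and -0.70.

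The slope of Ppp1r15a was the largest, 1.41 (SE 0.33, adjusted p = 0.10), followed by Trib3 at 0.86 (SE 0.20, adjusted p = 0.11) and Ddit3 at 0.66 (SE 0.17, adjusted p = 0.14). In the levels given above, these genes were high in both M1 libraries and low in FXR+/+ M2, which had the lowest acinar share. Derl3 had a slope of 0.45 (SE 0.10, adjusted p = 0.10), Herpud1 0.43 (SE 0.16, adjusted p = 0.28) and Asns 0.42 (SE 0.10, adjusted p = 0.10). In the paired fit the slope of Ddit3 turned to -0.044 (SE 0.41) and that of Herpud1 to -0.42 (SE 0.37), while that of Trib3 was 1.89 (SE 0.48, edgeR adjusted p = 0.49). The slopes of Sel1l and Atf4 were smaller, at 0.22 (SE 0.076, adjusted p = 0.24) and 0.22 (SE 0.093, adjusted p = 0.33). Hspa5 had a slope of 0.13 (SE 0.20), Sdf2l1 -0.15 (SE 0.23), Xbp1 0.15 (SE 0.11) and Wfs1 -0.048 (SE 0.14). That of Sdf2l1 was called in opposite directions with 1 library left out, at 0.65 (SE 0.12, edgeR adjusted p = 0.0070) without FXR+/+ M1 and at -0.43 (SE 0.10, adjusted p = 0.022) without FXR-/- M1. Hspa5 was called at 0.79 (SE 0.16, adjusted p = 0.010) without FXR+/+ M1. The sensors Ern1, Eif2ak3 and Atf6 had slopes of -0.0041, -0.063 and -0.066, each within its SE of 0.

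With the acinar share held in the model, the log2 fold change between genotypes of Sdf2l1 was 0.99 in place of 0.91, that of Chac1 0.36 in place of 0.64, and that of Ddit3 0.23 in place of 0.51. Pdia6 stood at 0.50 in place of 0.45 and Derl3 at 0.43 in place of 0.60. In that model 7 members had an unadjusted p under 0.05, against 8.63% of all genes, and none an adjusted one, against 7 of all genes. The acinar slope depended on which libraries were in it. Chac1 was no longer called, nor was any other member, without FXR+/+ M2 or without FXR-/- M2, where 7 and 22 of all genes were called. Without FXR+/+ F1 5 members and 520 genes were called, without FXR-/- F1 6 members and 642 genes, and without FXR-/- M1 7 members and 754 genes. Without FXR+/+ M1 there were 11 members, among them the chaperones Hspa5, Dnajb9, Sdf2l1, Creld2 and Manf, and 811 genes. Members at an unadjusted p under 0.05 numbered 25, all positive, without FXR+/+ M1, 2 without FXR+/+ M2 and 20 without FXR-/- M1, of which 11 had a negative slope in the last. In these fits 2953 of 14836, 597 of 14838 and 2619 of 14929 genes were at that level, in either direction. With the replicate number as a block no member was called (edgeR, adjusted p of Chac1 1.00, over all settings 0.0017 to 1.00).

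Markers of most other cell types had positive slopes on the acinar share as well. Of the 13 beta-cell genes, 11 had slopes below 0, with a median of -0.13, and 2 had a positive slope at an unadjusted p under 0.05. Of 6 fibroblast and stellate markers 5 had a positive slope at an unadjusted p under 0.05 and of 6 macrophage markers 5, against 9.93% of all genes. The fibroblast and stellate markers had summed levels of 41.9 to 146 CPM in FXR+/+ and 116 to 141 CPM in FXR-/- libraries. Those of the macrophage markers were 99.5 to 133 CPM in FXR+/+ and 131 to 155 CPM in FXR-/- libraries. Between genotypes 4 of 5 endothelial, 3 of 5 ductal and 3 of 6 macrophage markers were higher in FXR-/- islets at an unadjusted p under 0.05. None was lower, against 6.18% and 4.15% of all genes. Of the acinar genes 2 of 26 and of the beta-cell genes 2 of 13 were higher at that level, and none was lower. The acinar estimates lay above 0 for 24 of 26, with a median of 0.44. The endothelial markers had a summed level of 402 to 497 CPM in FXR+/+ and 505 to 809 CPM in FXR-/- libraries. The ductal markers, whose sum is mostly Krt7, had one of 242 to 279 CPM in FXR+/+ and 249 to 273 CPM in FXR-/- libraries, and the 3 that were higher were Spp1 (log2 fold change 1.08, SE 0.23), Sox9 (0.93, SE 0.35) and Krt19 (0.59, SE 0.23). No marker of these lists of other cell types, of the acinar list or of the beta-, alpha- and delta-cell lists was at 0 in all libraries. The part of these cells in the members' differences was not tested.

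**Figure D3:**
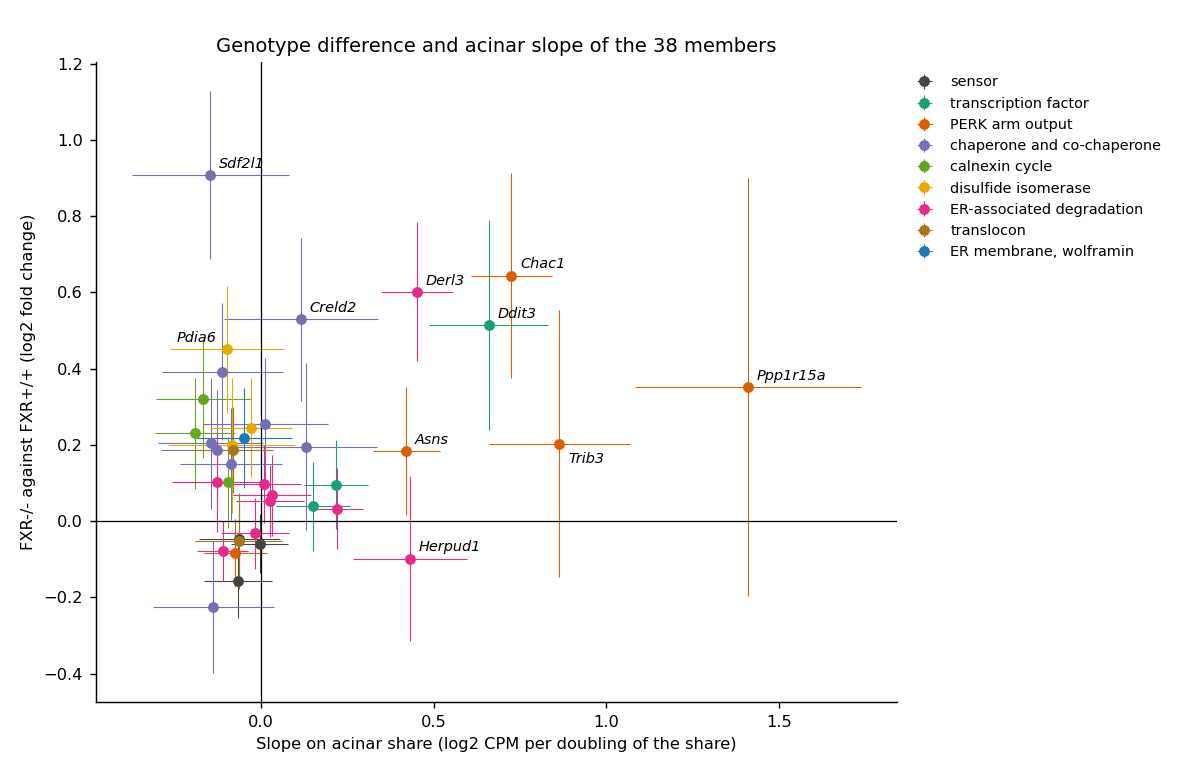
Log2 fold change of FXR-/- against FXR+/+ (vertical axis) and slope on acinar share (horizontal axis, log2 CPM per doubling) of each member, with bars of 1 SE and colours by role. All 6 libraries enter each value. Ddit3 and 4 of the 5 PERK arm genes lie to the right, while Sdf2l1 lies highest, to the left of 0.

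**Figure D4:**
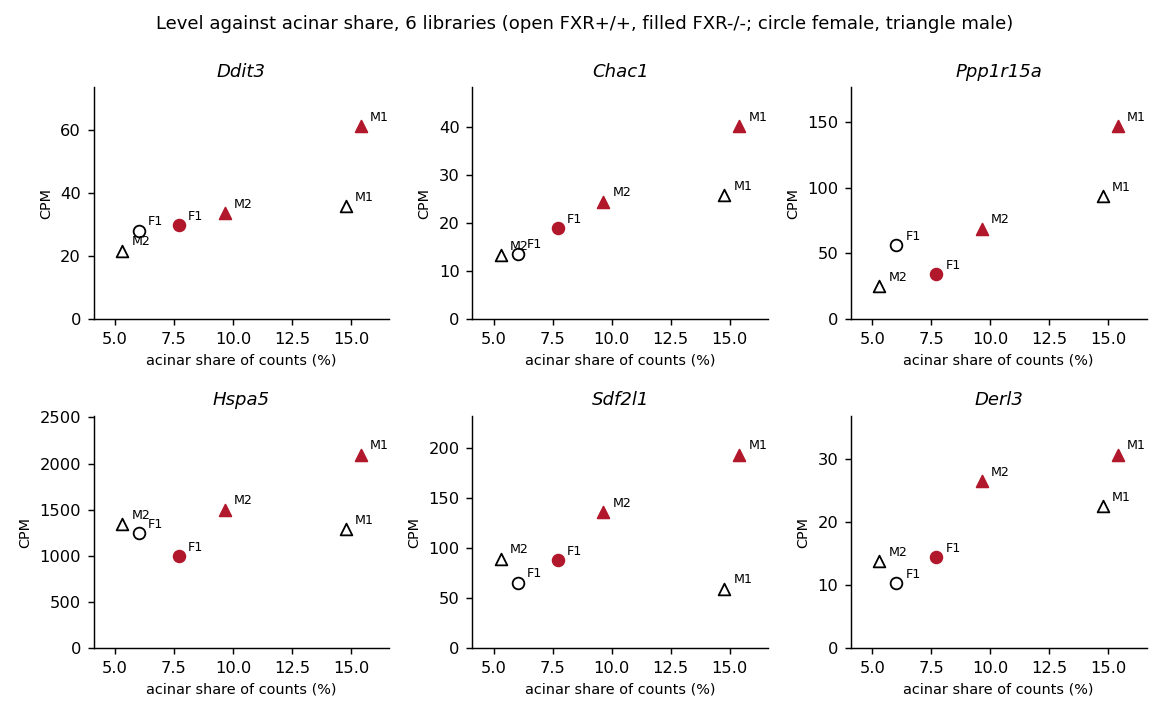
CPM of 6 members against the acinar share of counts (percent) in each library, open for FXR+/+ and filled for FXR-/-, circles for females and triangles for males. At the near-equal shares of pair M1 the FXR-/- library is above the FXR+/+ library for all 6 genes, which were picked for display. Of all 38 members 33 were higher there, and Atf4, Trib3, Ppp1r15b, Sel1l and Derl2 were not. The FXR+/+ M1 library is low for Sdf2l1 and high for Ppp1r15a.

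The 2 female and 4 male libraries were compared in the same model. Both female libraries form pair F1, so sex and the replicate pair cannot be told apart here. No member passed an adjusted p of 0.05 in edgeR (0 of 38, against 0.0547% of genes), and DESeq2 called 2, Derl3 and Edem2, against 0.568% of genes. At an unadjusted p under 0.05, 11 of 38 members were lower in females, against 3.86% of all genes, and none was higher, against 3.63%. Of the 38 estimates 36 lay below 0, with a median of -0.29, beside 7400 of 14619 and -0.0030 for all genes. ERAD held 7 of the 11, namely Herpud1, Edem1, Edem2, Syvn1, Sel1l, Derl2 and Derl3, and the others were Atf4, Creld2, Manf and P4hb. Edem2 averaged 96.9 CPM in females and 135 CPM in males, with both female values below all 4 male values, and its log2 difference was -0.48 (SE 0.11, adjusted p = 0.48). Derl3 averaged 12.3 and 23.3 CPM, with FXR+/+ M2 just below FXR-/- F1 and a log2 difference of -0.90 (SE 0.20, adjusted p = 0.42). Herpud1 averaged 170.5 and 290.5 CPM, again with no overlap, and a log2 difference of -0.78 (SE 0.24, adjusted p = 0.55). Creld2 differed by -0.67 (SE 0.23, adjusted p = 0.60), Syvn1 by -0.35 (SE 0.11, adjusted p = 0.57) and Manf by -0.49 (SE 0.19, adjusted p = 0.64). The log2 differences of Atf4, P4hb, Edem1, Sel1l and Derl2 ran from -0.34 for P4hb to -0.20 for Derl2.

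This count rested on few libraries. It was 17 without FXR+/+ F1, 20 without FXR+/+ M1, 1 without FXR-/- F1 and 5 without FXR-/- M1. Without FXR-/- F1 the members' median was -0.079 in place of -0.29, and the log2 difference of Manf was -0.11 in place of -0.49 and that of Creld2 -0.28 in place of -0.67. The count was 12 with the acinar share in the model (1470 of 14619 genes), and 18 without pair M1 (1662 of 14771 genes). The female libraries had acinar shares of 6.02% and 7.72%, within the male range. Scaled by library size alone, the median of all genes rose to 0.15 and that of the members stood at -0.14, with 4 members lower and 1 higher at an unadjusted p under 0.05.

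**Figure D5:**
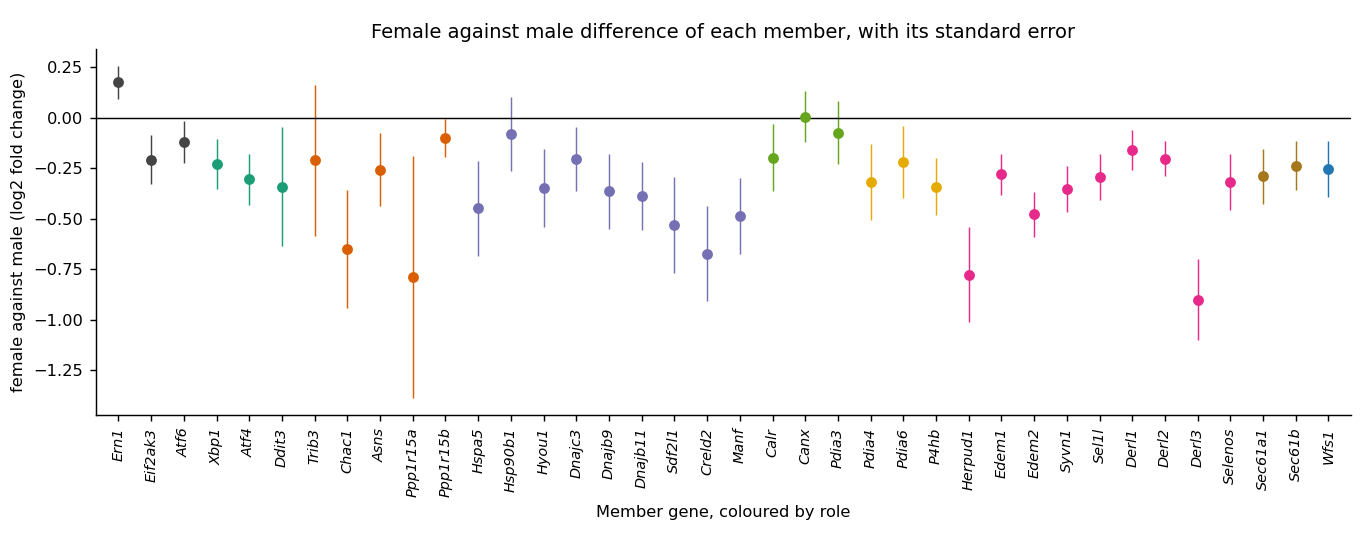
Log2 difference of female against male libraries for each member with bars of 1 SE, in order of role, with colours by role. All but 2 of the 38 points, Ern1 and Canx, lie below 0, and Derl3 is the lowest.

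Genes of the same pathways outside the 38 were read in the same fits. Of 20 further ATF4 targets, 3 had a positive acinar slope past the adjusted threshold, against 1.01% of all genes in either direction. At an unadjusted p under 0.05, 14 had a positive slope, against 9.93%, and none a negative one, against 4.79%, with a median slope of 0.43. Among them Nupr1, a stress-induced chromatin protein also made by acinar cells, stood at 108, 317 and 57.1 CPM in the FXR+/+ libraries and 115, 246 and 122 CPM in the FXR-/- libraries, and its slope was 1.64 (SE 0.084, adjusted p = 0.00085). Gdf15, a secreted stress signal, had a slope of 1.84 (SE 0.30, adjusted p = 0.037) at levels of 0.663 to 5.20 CPM. Atf3, an immediate stress-response factor, stood at 32.7, 151 and 0.726 CPM in the FXR+/+ libraries and 10.8, 262 and 50.9 CPM in the FXR-/- libraries. It was high in both M1 libraries, and its slope was 4.29 (SE 1.01, adjusted p = 0.11). Between genotypes 2 of the 20 were higher and 1 lower at an unadjusted p under 0.05, against 6.18% and 4.15% of all genes, with a median of 0.23.

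Of 35 further genes of ER import, folding and export, 7 were higher and none lower in FXR-/- islets at an unadjusted p under 0.05. The shares of all genes were 6.18% and 4.15%. None of the 35 passed the adjusted threshold, and the median was 0.069. Fkbp11, an ER prolyl isomerase of secretory cells, stood at 20.9, 31.3 and 27.9 CPM in the FXR+/+ libraries and 30.5, 68.3 and 57.1 CPM in the FXR-/- libraries. Both FXR-/- males were above the other 4 libraries and FXR+/+ M1 just above FXR-/- F1, with a log2 fold change of 0.91 (SE 0.14, adjusted p = 0.22). Among the others at that level, Fkbp2, Kdelr3 (a retrieval receptor for ER residents) and Rpn2 (a subunit of the oligosaccharyltransferase) stood at 0.40 (SE 0.10, adjusted p = 0.33), 0.35 (SE 0.14, adjusted p = 0.46) and 0.34 (SE 0.10, adjusted p = 0.43). On acinar share 2 of the 35 had a positive and 3 a negative slope at that level, against 9.93% and 4.79% of all genes. Pdia2, the pancreas isomerase of acinar cells, was called at 1.02 (SE 0.084, adjusted p = 0.0059). Between sexes 8 of the 35 were lower in females and none higher at that level, against 3.86% and 3.63% of all genes. Of 15 further ERAD genes, 2 (Rnf5 and Os9) were higher and 1 (Edem3) lower in FXR-/- islets at that level, against 6.18% and 4.15% of all genes. On acinar share 3 had a negative slope, against 4.79%, and none a positive one, against 9.93%. None of the 15 differed between sexes at an unadjusted p under 0.05.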

How the data were processed

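Islet poly(A) RNA was fragmented, copied with random hexamers and sequenced on an Illumina platform. The deposited tables held raw counts per gene and per exon for 6 libraries, made by the authors after alignment with HISAT (version, counter and genome build not given in the sources used here). Exon coordinates matched GENCODE vM21 (GRCm38) exons for 323 of 369 member exons (87.5%). Further deposited tables held the authors' own comparisons and were not used. The cDNA protocol does not mark strand, so reads from overlapping genes on opposite strands cannot be told apart. Of the members named above, this applies most to Ppp1r15b, Sec61a1, Hsp90b1, Derl2, Eif2ak3 and Manf, which share the most exon sequence with another gene.

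Genes were kept by filterByExpr (minimum count 10, minimum total 15), scaled by TMM and fitted by glmQLFit in edgeR 4.0.16 (R 4.3.3) with sex and genotype, and p-values were adjusted by the Benjamini-Hochberg method over all 14619 genes. SE was taken as the log2 fold change over the root of F. Acinar slopes added the log2 share of 26 acinar genes. DESeq2 1.42.0 and the other alternatives in the closing section were recomputed on all genes, and the model fits were tested on simulated data. The simulated libraries were independent, with the same spread for every gene, so that test does not give error rates for the real libraries. Levels per kb used GENCODE union exon length. Libraries of the same sex and number deviated together (correlation of deviations from the genotype mean 0.307 to 0.359, other pairs at most 0.00887). Such deviations cancel out within a genotype, which pushes the other correlations down. The F1 libraries also share sex, and the M1 libraries the highest acinar shares. These correlations therefore cannot show that same-numbered libraries belong together, and numbers came from the labels. No 2 libraries were alike within sampling noise. Named members were 8 fixed by role and those at an unadjusted p under 0.05 in a fit, up to 12 each by size, and up to 4 genes of each further list. The members, gene lists and tests were chosen with earlier results of these data known.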

Additional observations from a re-analysis of the deposited data

How the results depend on the processing

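Of members called between genotypes (0), leaving out pair M1, an alternative chosen after seeing the data, gave 3 and every other setting 0. The count at an unadjusted p under 0.05 (5) was 2 with no sex term, 8 in males alone, 8 by DESeq2, 8 from summed exon counts, 9 without pair M1 (5 higher, 4 lower) and 3 to 8 with 1 library left out (2 lower without FXR+/+ M1, 1 lower without FXR-/- M1). The replicate block, in which same-numbered libraries are paired, gave 6, Ddit3 being the one added, and changed no genotype call among the members. On acinar share (1 called, 9 unadjusted) the replicate block gave 0 and 2, DESeq2 3 called, acinar counts left out of library sizes 3 called, and 1 library left out 0 to 11 called and 2 to 25 unadjusted. Between sexes (0 and 11) DESeq2 gave 2 and 17, library size alone 5 unadjusted, leaving out pair M1 18 unadjusted, and 1 male library left out 5 to 20 unadjusted. For the interaction (2 unadjusted) DESeq2 gave 8 and library size alone 0. Over all genes, adjusted calls between genotypes went from 0 to 177 by DESeq2, 23 with the replicate block, 7 with the acinar term, 4 from exon counts and 235 without pair M1. On acinar share they went from 147 to 266 by DESeq2, 262 with acinar counts left out of library sizes, 95 with no sex term, 4 with the replicate block and 7 to 811 with 1 library left out. Between sexes they went from 8 to 83 by DESeq2, 13 with the acinar term, 1 under a minimum of 10 counts in every library and 43 without pair M1, and for the interaction from 0 to 3 by DESeq2. The share of higher estimates among genes at an unadjusted p under 0.05 went, under library size alone, from 67.5% to 38.2% on acinar share (82.4% with acinar counts left out), from 48.5% to 91% between sexes and from 53.9% to 85.1% for the interaction.

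Some estimates changed sign, most of them near 0 but the acinar slopes of Ddit3 (0.66) and Herpud1 (0.43) not. Between genotypes Xbp1 went to -0.026 with the acinar term, -0.056 under library size alone, -0.00019 with the 20 most abundant genes left out of library sizes and -0.044 without pair M1, Eif2ak3 to 0.044 in males alone and 0.020 from exon counts, Atf4 to -0.0076 from exon counts, and Hspa5 to -0.087 without pair M1. With 1 library left out, their genotype values ran from -0.059 to 0.17 (Xbp1), -0.15 to 0.045 (Eif2ak3), -0.025 to 0.20 (Atf4) -0.030 to 0.45 (Hspa5), and without a change of sign 0.17 to 0.73 (Ddit3), 0.38 to 0.92 (Chac1), 0.24 to 0.80 (Creld2), 0.68 to 1.15 (Sdf2l1), 0.40 to 0.81 (Derl3) and 0.29 to 0.64 (Pdia6). The acinar slope went to 0.043 (Eif2ak3), 0.0037 (Atf6) and 0.074 (Wfs1) with no sex term, to -0.044 (Ddit3), -0.50 (Hspa5) and -0.42 (Herpud1) with the replicate block, and for Ern1 to 0.010 on the untransformed share and 0.021 with acinar counts left out. With 1 library left out, slopes ran from -0.053 to 0.12 (Ern1), -0.18 to 0.28 (Eif2ak3), -0.15 to 0.18 (Atf6), -0.22 to 0.37 (Wfs1), -0.017 to 0.27 (Atf4) and -0.080 to 0.79 (Hspa5). The cause was not tested. No member named for its difference between sexes changed sign, but without FXR-/- F1 that of Manf shrank from -0.49 to -0.11 and that of Creld2 from -0.67 to -0.28. With 6 libraries and 1 female of each genotype, small differences were not resolvable, and a fit without 1 female takes the lone female to vary like the males.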
